A study of Mus musculus with 6 samples.

Results

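The genes described here are 10 markers of subcerebral projection neurons other than the transcription factors that specify these cells: Crym, Ldb2, Pcp4, Crim1, Cntn6, Diaph3, Parm1, Npr3, Lratd2 and Opn3. They were taken by name, from probe sets that the platform annotation pairs with exactly 1 gene, which gave 16 probe sets for the 10 genes out of 34945 such probe sets for 18193 genes. The study compared 2 lines of untreated transgenic mice as populations of cortical pyramidal cells. In each line a bacterial artificial chromosome, driven like the gene it is named for, puts a tag on ribosomes, so that messengers under translation in the marked cells can be pulled from a lysate of cortex (translating ribosome affinity purification). One group carried the S100a10 driver (line ES691, 3 biological replicates) and the other the Glt25d2 driver (line DU9, 3 biological replicates), both crossed back for 3 to 5 generations onto C57BL/6 from FVB, and neither the age nor the number of animals behind a replicate is given in the labels. From 15 ng of total RNA, each replicate was amplified in a pair of cycles and hybridised to 1 array, and the values are intensities on a linear scale. The series text says that the S100a10 transgene also marks some cells other than neurons, and points to a list of probe sets that was not used here. It also advises a limit of 50 on intensities; applied to both group means, that limit would drop Lratd2 and Diaph3, which are described below with bounds.

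Subcerebral projection neurons are layer 5 pyramidal cells with large cell bodies whose axons leave the cortex for the pons, the superior colliculus and the spinal cord. Their identity is set by transcription factors such as Fezf2 and Bcl11b, and a set of downstream genes, many found by profiling of corticospinal neurons, serves to recognise them. These genes encode proteins of many kinds: a nuclear cofactor, cytosolic binding proteins, a regulator of actin, adhesion molecules and receptors of the cell surface.

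Of the 10 genes, all of which had a probe set with a group mean of at least 50, 4 had lower intensities in S100a10 cells than in Glt25d2 cells, 1 was higher and 5 did not pass (limma adjusted p, threshold 0.05). Among all 11821 genes tested 4.59% were lower and 44.7% were higher. The median log2 difference, S100a10 minus Glt25d2, was -0.73 over the 10 genes and 0.56 over all genes tested. Lratd2, Crym, Diaph3 and Ldb2 fell, and Opn3 rose. Lratd2 and Diaph3 reached the limit of 50 only through their Glt25d2 means, so the filter favoured their direction. With both group means at 50 or more they were not tested, and Crym and Ldb2 were the lower genes. The arrays of the 2 groups did not overlap for Lratd2, Crym, Diaph3 and Ldb2, against 7.9% of all genes in that direction. Nor did they for Opn3 and Pcp4, against 55.9% in the other. In pulled-down RNA of a tissue, fewer marked cells of a type and less of the messenger per cell cannot be told apart.

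**Figure D1:**
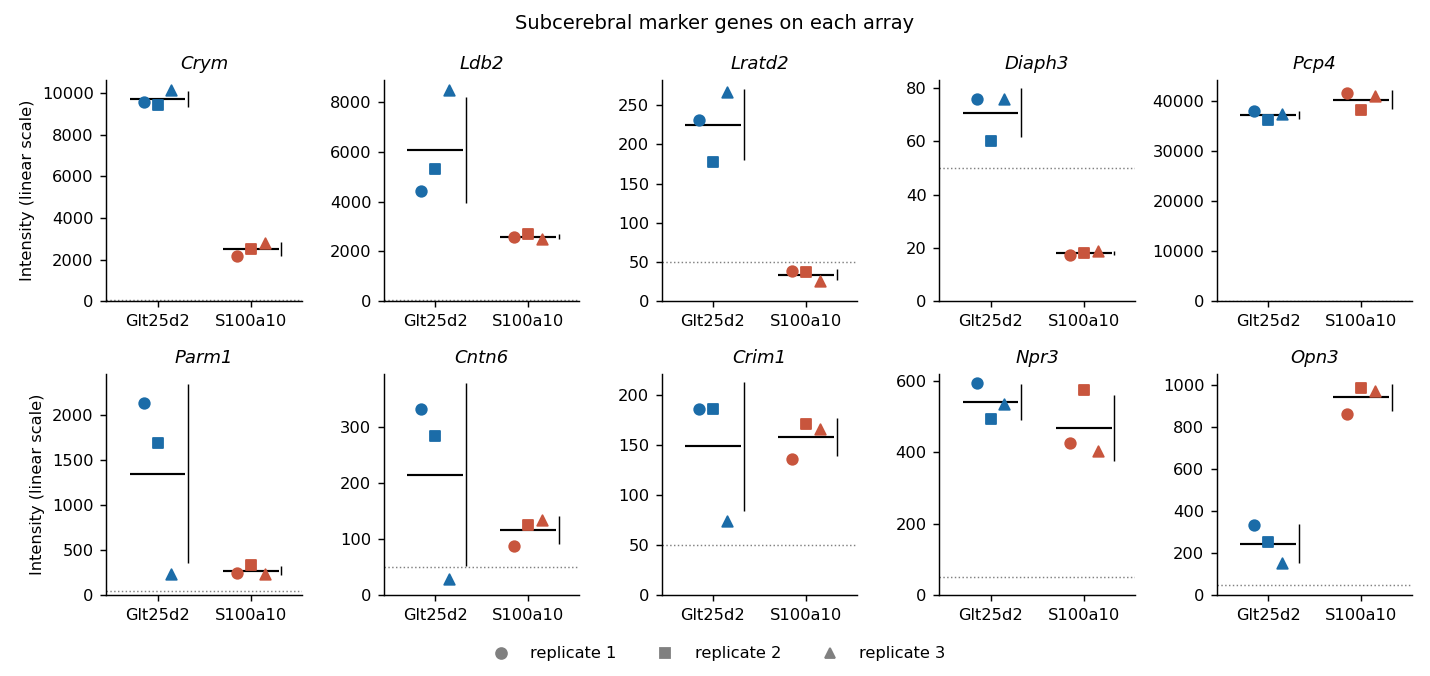
Intensity (linear scale, each panel from 0) of each of the 10 genes on the 3 Glt25d2 arrays (blue) and the 3 S100a10 arrays (red); marker shapes are replicate numbers, horizontal lines are group means, vertical lines are SD around the mean (n = 3) and the dotted line is an intensity of 50. Crym, Ldb2, Lratd2 and Diaph3 lay lower on every S100a10 array, Opn3 lay higher, and for Parm1, Cntn6 and Crim1 Glt25d2 replicate 3 lay below the other two.

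The driver genes followed the labels: the mean intensity of S100a10 was 15486 ± 2417 in its own line against 3237 ± 179 in the other, and that of Glt25d2, now named Colgalt2, was 1077 ± 263 in its own line against 11.6 ± 0.198 (SD, n = 3). The deposited scale matters for all values below. The median intensity of all probe sets was 20.4 to 21.3 in Glt25d2 arrays and 35.5 to 35.8 in S100a10 arrays, and most genes lie higher in S100a10 as deposited. After quantile normalization of the 6 arrays, 6 of the 10 genes were lower and 1 was higher, against 19% and 18.7% of all genes. Centring each array on the median of its probe sets, a value under 50, gave 7 lower and 1 higher, against 31.8% and 16.6%. A second feature is Glt25d2 replicate 3, in which 993 of 11821 genes (8.4%) lay over 4-fold below the mean log2 value of the other 2 Glt25d2 arrays. Without that array 6 of the 10 genes were lower and 1 was higher, against 6.33% and 55.9% of all genes, and with quantile normalization as well 8 were lower and 1 was higher, against 23.5% and 24.3%. The list counts below are to be read against the same shares of all genes in each of these fits. The genes added by these fits were Parm1, Npr3, Cntn6, Crim1 and Pcp4, as described under each.

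**Figure D2:**
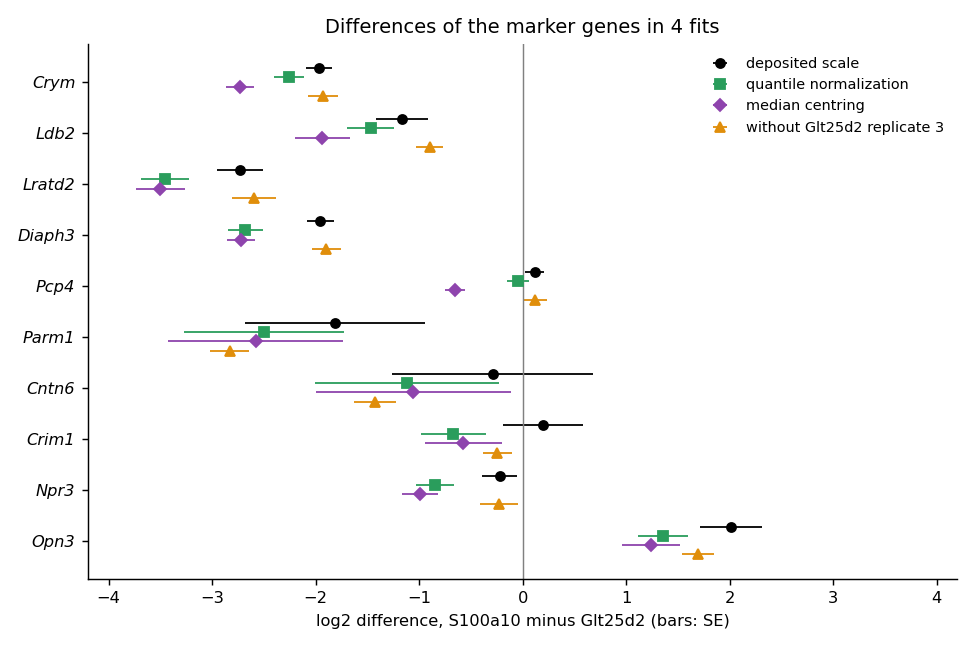
log2 difference, S100a10 minus Glt25d2 (horizontal axis, bars are SE), of each of the 10 genes in 4 fits: the deposited scale, quantile normalization, median centring, and the deposited scale without Glt25d2 replicate 3. Crym, Ldb2, Lratd2 and Diaph3 stayed below 0 and Opn3 above 0 in all 4, whereas Pcp4 and Crim1 changed sign.

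Crym encodes mu-crystallin, a cytosolic protein that binds thyroid hormone. Its intensity was 9591, 9423 and 10144 on the Glt25d2 arrays and 2155, 2538 and 2815 on the S100a10 arrays. The groups lay far apart and the arrays within each were close together. Crym fell by 1.97 on the log2 scale (SE 0.13, limma adjusted p = 1.17e-04), a 3.90-fold difference, and 29 of the 11821 genes had a lower value of the difference. It was -2.26 after quantile normalization and -2.73 after centring.

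Of 12 listed genes of thyroid hormone handling, 9 were measured, of which 4 were higher, none was lower and 5 did not pass as deposited, where 44.7% of all genes were higher. After quantile normalization 2 were higher and 3 lower, and after centring 1 was higher and 5 lower. Hr, a corepressor of nuclear receptors that is itself induced by thyroid hormone, rose by 1.97 (SE 0.09, limma adjusted p = 3.22e-05). Its means were 61.3 ± 1.76 in Glt25d2 and 240.5 ± 7.41 in S100a10 arrays (SD over 3), and after quantile normalization the rise was 1.10. Rxrb and Rxra, which encode the partners of thyroid hormone receptors, differed by 1.03 and 0.99; centring took both under the threshold, as quantile normalization did Rxra. The probe set of the receptor gene Thrb lay under 50 on every array. Thra, the other receptor gene, had means of 3284 in Glt25d2 and 4576 in S100a10 arrays. As deposited it rose by 0.48 (SE 0.11, limma adjusted p = 0.0166), but it was not among the genes higher after either rescaling.

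Ldb2 encodes a nuclear cofactor that binds LIM domains and bridges LIM-homeodomain factors on DNA. The gene has 3 probe sets. The one used for the gene read 4411, 5324 and 8472 on the Glt25d2 arrays against 2565, 2718 and 2510 on the S100a10 arrays. Glt25d2 replicate 3 was the highest of the 6, and the lowest Glt25d2 array still lay above every S100a10 array. Ldb2 fell by 1.17 (SE 0.25, limma adjusted p = 0.0113), or by 0.90 without Glt25d2 replicate 3; the difference was -1.47 after quantile normalization and -1.94 after centring. The other probe sets went the same way. One read 1671, 1276 and 1979 against 556, 556 and 473, and its difference was -1.62 (SE 0.19; over probe sets, limma adjusted p = 0.0011). The other read 807, 1272 and 2047 against 595, 555 and 584, with -1.15 (SE 0.34; over probe sets, limma adjusted p = 0.034). In the fit over 21291 probe sets 4.39% were lower and 44.2% higher.

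Ldb1, the close relative of Ldb2, went the other way. It read 150, 139 and 208 on the Glt25d2 arrays and 518, 530 and 471 on the S100a10 arrays, without overlap. It rose by 1.63 (SE 0.18, limma adjusted p = 8.04e-04), and by 0.92 after quantile normalization. Of 12 listed genes around Ldb2 (Ldb1, LIM-only and LIM-homeodomain proteins and single-stranded DNA-binding cofactors) 11 were measured, with 6 higher, 1 lower and 4 that did not pass; after quantile normalization 6 were higher and 5 lower. Of all genes 44.7% were higher and 4.59% lower as deposited, and 18.7% and 19% after quantile normalization. Lhx6, a factor of cortical interneurons, differed by 2.57 and Lhx2, a LIM-homeodomain factor of the developing cortex, by 2.56. Isl1, under 50 on every Glt25d2 array, lay at least 1.74-fold higher on the other side, and did not pass with values under 50 set to 50.

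Lratd2 encodes a protein with a domain like that of lecithin retinol acyltransferase. Its intensity was 231, 177 and 267 on the Glt25d2 arrays and 38.3, 37.4 and 26.1 on the S100a10 arrays. Every S100a10 array lay under 50, so that only a bound is given: Lratd2 was at least 4.44-fold lower in S100a10 cells (limma adjusted p = 2.79e-04 for a fitted difference of -2.73, SE 0.22). Lratd1, its relative, read 905, 1130 and 1394 against 491, 503 and 529, with no overlap, and fell by 1.15 (SE 0.17, limma adjusted p = 0.003). Of 5 listed genes of the wider family 3 were measured; Lratd1 was lower, Plaat3, a phospholipase of the family, was higher by 2.42 (SE 0.22), and the other did not pass. The same 2 genes passed in the same directions after quantile normalization, at -1.71 and 1.96.

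Diaph3 encodes a formin, a protein that starts and lengthens actin filaments. Its only probe set read 76.0, 60.0 and 76.0 on the Glt25d2 arrays and 17.5, 17.9 and 19.0 on the S100a10 arrays. The values are low in both groups, and 2 of the Glt25d2 values are identical, which understates the spread. Identical Glt25d2 values also occur for other genes named here, among them Rxra, Nrgn, Furin and Gnai1, with the same effect on their spread. Diaph3 was at least 1.41-fold lower in S100a10 cells (limma adjusted p = 1.23e-04 for a fitted difference of -1.95, SE 0.13). Formins of this class are also known from dividing cells; of 5 genes of dividing cells, 4 had probe sets, Mki67 and Top2a among them, and all 4 lay under 50 on every array. The part of dividing cells in the Diaph3 value was not tested.

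The paralog Diaph1 read 329 on each of the 3 Glt25d2 arrays and 530, 532 and 436 on the S100a10 arrays. As deposited it rose by 0.60 (SE 0.11, limma adjusted p = 0.00737), with a spread understated by the identical values, but its sign turned to -0.069 after quantile normalization and -0.17 after centring. Diaph2 read 604, 806 and 1025 against 1052, 1107 and 992, which overlap, and did not pass (0.40, SE 0.21); its sign turned after rescaling too. Of 11 listed formins and small GTPases 9 were measured, with 6 higher, none lower and 3 that did not pass; after quantile normalization 2 were higher and none lower. The shares of all genes were 44.7% higher and 4.59% lower as deposited, and 18.7% and 19% after quantile normalization. Rhoa and Rhob, small GTPases that act on formins, differed by 1.08 and 1.07, and by 0.74 and 0.78 after quantile normalization; neither passed after centring. Fmn1, another formin, differed by 0.89, a call that either rescaling ended, as did leaving out any array but Glt25d2 replicate 3.

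Pcp4 encodes a small cytosolic protein that binds calmodulin through an IQ motif. Its single probe set read 37990, 36286 and 37425 on the Glt25d2 arrays and 41659, 38215 and 41116 on the S100a10 arrays. Although the ranges do not overlap, they nearly touch, and the difference of 0.11 (SE 0.09) did not pass (limma adjusted p = 0.322). It turned to -0.046 after quantile normalization, and after centring to -0.65, which passed (limma adjusted p = 0.0034). Pcp4 thus gave no direction that holds across scalings. Its relative Pcp4l1 read 164, 163 and 164 against 315, 138 and 360, where S100a10 replicate 2 lay below all Glt25d2 arrays and the other S100a10 arrays above them; it did not pass (0.61, SE 0.37), and without S100a10 replicate 2 it passed at 1.04. Of 10 genes listed for calmodulin signalling 7 were measured. As deposited 1 was higher and 1 lower, against 44.7% and 4.59% of all genes. Gap43, a growth-cone protein that binds calmodulin, fell by 0.98 (SE 0.22, limma adjusted p = 0.0128), and Nrgn, a postsynaptic protein with an IQ motif, rose by 0.50 (SE 0.09, limma adjusted p = 0.00702); the other 5 did not pass. Gap43 was also lower after quantile normalization (-1.22) and centring (-1.75), while Nrgn did not pass after either and turned negative after centring.

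For 3 of these members the upstream sequence is shown to set a gene that fell (Diaph3), one that did not pass (Pcp4) and the one that rose (Opn3) side by side. The sequences are the 250 bases before the annotated start, 5′ to 3′ on the gene's strand, from RefSeq on GRCm38.p6, and the table used held 7 of the 10 genes. They span chr14:87141225-87141474 (minus strand) for Diaph3, chr16:96467356-96467605 (plus strand) for Pcp4 and chr1:175692633-175692882 (minus strand) for Opn3. Capitals mark matches, on either strand, of the GC box GGGCGG, the CCAAT box CCAAT and the TATA box TATAAA.
Diaph3: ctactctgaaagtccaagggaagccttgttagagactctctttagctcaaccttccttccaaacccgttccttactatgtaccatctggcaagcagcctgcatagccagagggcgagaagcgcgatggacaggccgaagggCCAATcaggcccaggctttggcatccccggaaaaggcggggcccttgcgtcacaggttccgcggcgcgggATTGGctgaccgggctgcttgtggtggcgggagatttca
Pcp4: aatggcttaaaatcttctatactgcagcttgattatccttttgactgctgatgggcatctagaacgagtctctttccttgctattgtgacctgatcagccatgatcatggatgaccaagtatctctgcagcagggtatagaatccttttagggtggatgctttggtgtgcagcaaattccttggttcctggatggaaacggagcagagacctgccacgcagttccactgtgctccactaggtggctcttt
Opn3: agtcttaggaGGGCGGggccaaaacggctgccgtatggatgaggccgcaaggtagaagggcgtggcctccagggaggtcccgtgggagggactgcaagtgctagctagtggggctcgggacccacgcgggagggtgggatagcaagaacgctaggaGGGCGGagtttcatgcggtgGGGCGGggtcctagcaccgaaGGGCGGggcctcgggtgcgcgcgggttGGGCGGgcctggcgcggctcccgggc

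The Opn3 stretch held 5 GC boxes and 23 CpG dinucleotides at 70.4% G and C. Diaph3 had 2 CCAAT boxes, 14 CpG dinucleotides and 58.8% G and C, and Pcp4 had none of the 3 motifs, 3 CpG dinucleotides and 46.8% G and C. Over 32851 promoter stretches of the same length the median was 6 CpG dinucleotides and 52.4% G and C; a GC box was found in 32.7%, a CCAAT box in 33.8% and a TATA box in 12.4%. Of the other members in the table, Crim1 held 25 CpG dinucleotides, Parm1 11, Npr3 6 and Cntn6 3. No TATA box match lay in any of the 7 stretches. These matches describe letters and say nothing of factor binding.

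The other 5 genes encode proteins that enter the secretory path, and most of them were low in Glt25d2 replicate 3. This division into cytosolic or nuclear and membrane proteins was made after the values were seen. Relative to the mean log2 value of replicates 1 and 2, Glt25d2 replicate 3 lay at -3.42 for Cntn6, -3.05 for Parm1, -1.32 for Crim1 and -0.94 for Opn3, but at -0.013 for Npr3. For the cytosolic and nuclear members it lay between 0.011 (Pcp4) and 0.81 (Ldb2). Over all genes the median was 0.070 and the range from the 5th to the 95th percentile was -2.63 to 0.74. Cntn6 lay at the 1.68 percentile of all genes, Parm1 at 2.89, and Ldb2 near the other end at 96.7.

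**Figure D3:**
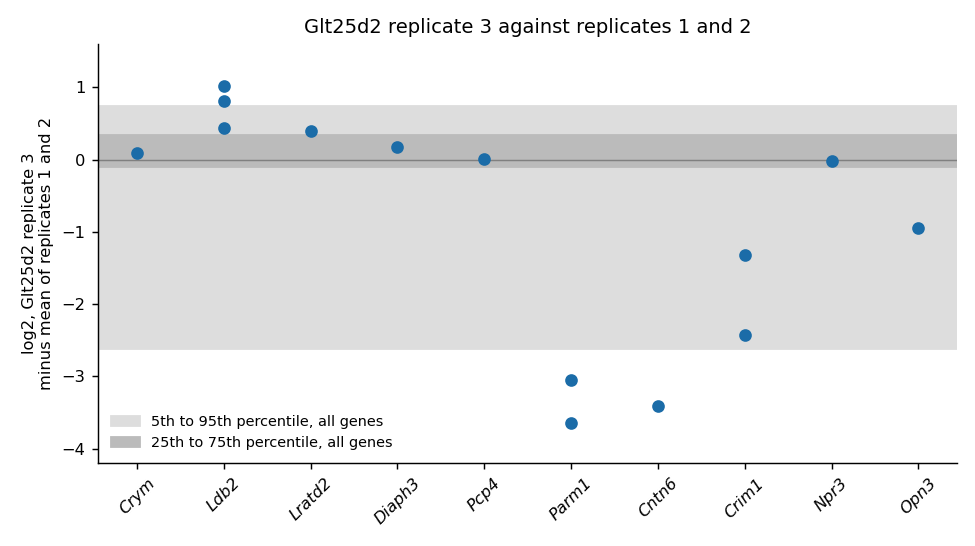
log2 intensity of Glt25d2 replicate 3 minus the mean log2 intensity of Glt25d2 replicates 1 and 2 (vertical axis), with a point for each probe set of the 10 genes that passed the filter, and grey bands for the ranges of all 11821 genes. Parm1 and Cntn6 fall below the 5th percentile of -2.63, Crim1 and Opn3 lie below 0, and Npr3 and the cytosolic and nuclear members lie near or above 0.

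Cntn6 encodes a contactin, an adhesion protein of the immunoglobulin family anchored to the membrane by a lipid. It read 332, 284 and 28.7 on the Glt25d2 arrays and 88.0, 126 and 134 on the S100a10 arrays. Replicates 1 and 2 of Glt25d2 lay above every S100a10 array and replicate 3 lay below all of them. The difference of -0.29 (SE 0.97) did not pass (limma adjusted p = 0.815). Without Glt25d2 replicate 3 it was -1.43 (SE 0.20) and passed (limma adjusted p = 9.08e-04). Without Glt25d2 replicate 1 or 2 it was 0.34 or 0.22, so its sign rests on which array is left out.

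The same array was low across the contactins. Cntn1 read 7551, 7701 and 889 on the Glt25d2 arrays against 3832, 5291 and 5075 on the S100a10 arrays, and did not pass (0.33, SE 0.88); without Glt25d2 replicate 3 it passed at -0.70. Cntn2 at 1.04, Cntn3 at 0.87 and Cntn4 at 0.65 did not pass either, and without that array the last 2 took negative signs, -0.29 and -0.25. Cntn5 rose by 1.57 (SE 0.47, limma adjusted p = 0.037) from 51.1, 51.0 and 16.1 to 106, 102 and 102, a call that either rescaling ended, as did leaving out any S100a10 array. Of 10 listed contactins and binding partners 9 were measured, 1 was higher, none was lower and 8 did not pass, where 44.7% of all genes were higher. After quantile normalization without Glt25d2 replicate 3 none was higher and 5 were lower, against 24.3% and 23.5% of all genes.

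Parm1 encodes a mucin-like membrane glycoprotein. It read 2136, 1696 and 230 on the Glt25d2 arrays and 245, 330 and 237 on the S100a10 arrays. Replicates 1 and 2 of Glt25d2 stood far above all S100a10 arrays, and replicate 3 stood just below them. The difference of -1.81 (SE 0.87) did not pass (limma adjusted p = 0.135), although 36 genes alone had a lower one. Without Glt25d2 replicate 3 it was -2.83 (SE 0.19, limma adjusted p = 2.84e-05), and it also passed after quantile normalization at -2.50 and after centring at -2.58. The second probe set read 1170, 958 and 84.5 against 222, 283 and 210, the same pattern, and did not pass (-0.95, SE 1.03).

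Crim1 encodes a membrane protein with cysteine-rich repeats that binds bone morphogenetic proteins (BMPs). Its representative probe set read 186, 186 and 74.5 on the Glt25d2 arrays and 136, 171 and 166 on the S100a10 arrays; the first 2 values are identical. The groups overlapped and the difference of 0.19 (SE 0.39) did not pass (limma adjusted p = 0.692). It was -0.25 without Glt25d2 replicate 3, and -0.99 with quantile normalization as well, which passed (limma adjusted p = 0.00255). The other probe set read 288, 186 and 42.8 against 99.5, 169 and 147, and its difference of 0.035 (SE 0.72) did not pass. Of 11 listed genes of BMP ligands, receptors and antagonists 9 were measured. As deposited 6 were higher in S100a10 cells and 1 was lower, against 44.7% and 4.59% of all genes. After quantile normalization 6 were higher and 2 lower, against 18.7% and 19%. Bmp4 read 11.1 on each Glt25d2 array and 1256, 1253 and 1252 on the S100a10 arrays, at least 25.1-fold more. Bmp7 was higher by at least 19.2-fold, and Bmp2 rose by 2.45 (SE 0.26, limma adjusted p = 7.97e-04). Genes of mural cells and fibroblasts moved with them: 8 of 9 measured were higher, their summed intensity was 735 to 916 in Glt25d2 and 8456 to 10924 in S100a10 arrays, and 1 of 11 listed lay under 50 on every array. Pdgfrb, the growth factor receptor of mural cells, was at least 17.2-fold higher. Rgs5, of the same list, was lower, with means of 443 in Glt25d2 and 240 in S100a10 arrays. Its difference was -0.88 (SE 0.15, limma adjusted p = 0.00429). The part of such cells in these values was not tested.

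Npr3 encodes the clearance receptor that binds and removes natriuretic peptides. Of its 3 probe sets, 1 passed the filter, and it read 593, 493 and 536 on the Glt25d2 arrays and 427, 574 and 403 on the S100a10 arrays. The groups overlapped and the difference of -0.22 (SE 0.17) did not pass (limma adjusted p = 0.311). It passed at -0.85 after quantile normalization (limma adjusted p = 0.0142) and at -0.99 after centring (limma adjusted p = 0.00542). The other 2 probe sets had group means of 32.2 and 32.2, and of 9.24 and 16.7, and were not tested.

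Of 10 listed genes around Npr3, 4 were measured, of which 2 were higher and none lower as deposited, while none was higher and 2 lower after quantile normalization. Of all genes 44.7% were higher and 4.59% lower as deposited, and 18.7% and 19% after quantile normalization. The peptide genes Nppa, Nppb and Nppc and the receptor gene Npr1 lay under 50 on every array. Npr2, a receptor with guanylyl cyclase activity, read 173, 116 and 20.9 against 428, 420 and 470, without overlap and again with a low Glt25d2 replicate 3. It rose by 2.55 (SE 0.79, limma adjusted p = 0.0405), a call that either rescaling ended, as did leaving out Glt25d2 replicate 2 or any S100a10 array. Furin, a protease that processes precursors of secreted proteins, differed by 0.91, or by -0.0093 after quantile normalization.

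Opn3, an opsin of the brain also called encephalopsin, was the only one of the 10 genes that rose. It read 333, 253 and 151 on the Glt25d2 arrays and 866, 986 and 975 on the S100a10 arrays. The lowest S100a10 array lay well above the highest Glt25d2 array, and Glt25d2 replicate 3 was again the lowest. The rise was 2.01 (SE 0.30, limma adjusted p = 0.00277), a 4.03-fold difference; 1159 of 11821 genes had a higher one. It was 1.70 without Glt25d2 replicate 3, 1.35 after quantile normalization and 1.24 after centring, and passed in each of these fits. Of the mural and fibroblast genes given above, 8 of 9 measured differed in the same direction, against 44.7% of all genes. Their part in the Opn3 value was not tested. Among the G protein subunits listed with it, Gnai2 rose by 1.82 (SE 0.18) and Gnao1 by 0.81 (SE 0.09), and Gnai1 fell by 0.43 (SE 0.09); Gnao1 did not pass after centring.

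Other genes of layer 5 subcerebral neurons were listed apart from the 10. This list holds the specifying transcription factors Fezf2 and Bcl11b, which the 10 leave out. Of 13 listed 12 were measured, and 6 were lower, none was higher and 6 did not pass, with a median difference of -0.58. The lower genes were the transcription factors Bcl11b, Fezf2, Bcl6, Pou3f1 and Sox5, together with Vat1l. Cdh13, Cdh22, Igfbp4, Nefh, Ntng1 and Otx1 did not pass. As deposited 4.59% of all genes were lower. After quantile normalization 9 of the 12 were lower, against 19% of all genes. Without Glt25d2 replicate 3 it was likewise 9, against 6.33%. Pou3f1, a POU-domain transcription factor, read 2958, 3076 and 3284 against 467, 601 and 587 and fell by 2.50 (SE 0.13, limma adjusted p = 5.89e-05). With its probe sets averaged, the difference of Pou3f1 was smaller, at -1.53, and passed. Bcl6, a transcriptional repressor, differed by -1.96 and Vat1l, a marker of large layer 5 neurons, by -1.90. Their arrays did not overlap either. Genes of intratelencephalic neurons, whose axons stay in the forebrain, had 4 higher and none lower of 11 measured, against 44.7% and 4.59% of all genes. The counts were 3 and 2 after quantile normalization, 2 and 2 after centring, and 8 and 2 without Glt25d2 replicate 3. Of 8 measured corticothalamic genes 2 were higher and 2 lower, and after either rescaling 1 was higher and 3 were lower. Lists of other cells held lower genes too. Of 8 measured oligodendrocyte genes 2 were lower and 1 higher as deposited. The counts were 3 and none after quantile normalization, and 4 and 2 without Glt25d2 replicate 3. With both they were 6 and 1, against 23.5% and 24.3% of all genes. As deposited, 2 of 9 astrocyte genes were lower and 2 higher, with 1 and 3 of 8 interneuron genes and none and 1 of 5 microglial genes.

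**Figure D4:**
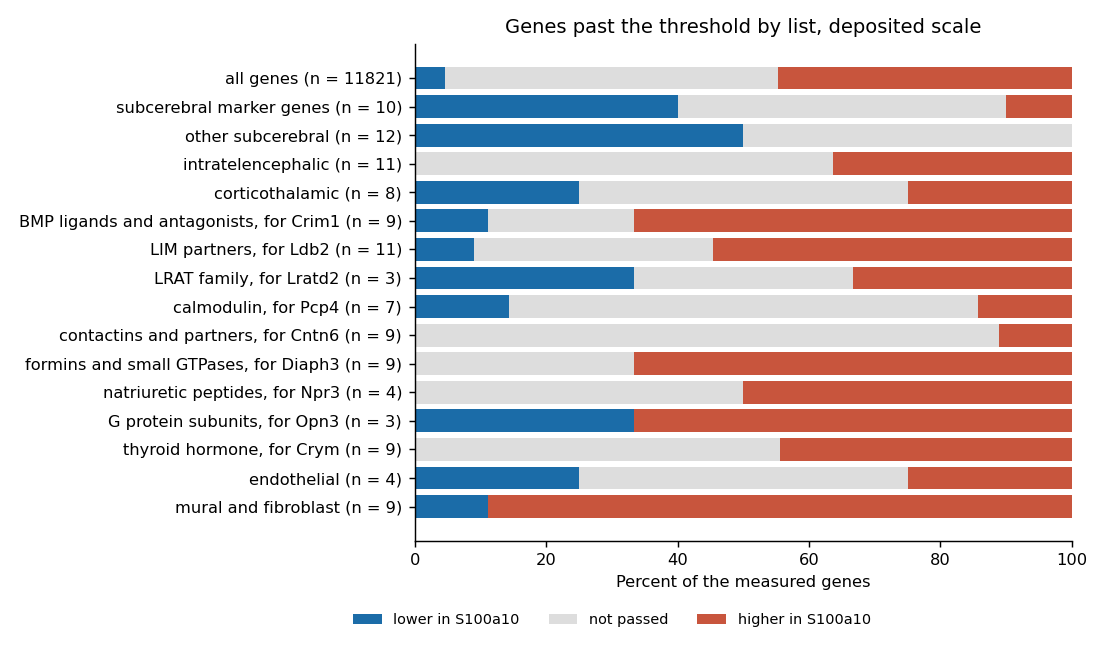
Percent of the measured genes of each list (n in brackets) that were lower in S100a10 cells (blue), higher (red) or did not pass (grey), on the deposited scale, with all genes in the top bar. The 10 marker genes, with 4 lower and 1 higher, and the other subcerebral genes, with 6 lower and none higher, have more blue than the 4.59% of all genes. Of the 4, Lratd2 and Diaph3 passed the filter only through their Glt25d2 means. The other subcerebral list includes transcription factors. Lists of astrocytes, oligodendrocytes, microglia, interneurons and excitatory neurons are not drawn.

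By Euclidean distance of the 6 log2 values after subtraction of each gene's mean, the profile nearest to Crym was that of Diaph3 (0.30), followed by Pde9a, a phosphodiesterase of cyclic GMP (0.34), and Vat1l (0.36). The Diaph3 values in S100a10 arrays lie under 50, so that its distance and place in this order rest on values at background level. Pde9a read 211 on each Glt25d2 array and 53.4, 69.2 and 72.3 on the S100a10 arrays. Nearest to Ldb2 were Gnb4, a G protein beta subunit (0.19), Ppfia2, a liprin of the synapse (0.28), and Kctd4 (0.29), which shared its high value in Glt25d2 replicate 3: Gnb4 read 1409, 1537 and 2315 against 779, 755 and 716. With its probe sets averaged, Gnb4 was at -0.59 and did not pass. Nearest to Pcp4 were Micos13, Usp4 and Pfn2, whose differences of 0.11 to 0.14 did not pass. These are descriptions over 6 arrays.

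Of 6 genes of excitatory neurons, all measured, 2 were higher, none was lower and 4 did not pass; after quantile normalization 2 were higher and 1 lower, after centring 1 and 2, and without Glt25d2 replicate 3 there were 4 and none. Among them Slc17a7, a glutamate transporter of cortical excitatory neurons, read 134, 138 and 46.1 on the Glt25d2 arrays and 373, 472 and 397 on the S100a10 arrays, and differed by 2.12 (SE 0.45, limma adjusted p = 0.0113). Ldb2 and Crim1 are also known from blood vessels. Of 10 endothelial genes 4 were measured and 5 lay under 50 on every array. As deposited 1 was lower and 1 higher, but 3 were lower and none higher after either rescaling, and 3 and 1 without Glt25d2 replicate 3. For these counts and those of excitatory neurons, 4.59% of all genes were lower and 44.7% higher as deposited. The shares were 19% and 18.7% after quantile normalization, 31.8% and 16.6% after centring, and 6.33% and 55.9% without Glt25d2 replicate 3. The summed intensity of the endothelial genes was 1144, 847 and 349 on the Glt25d2 arrays and 388 to 434 on the S100a10 arrays. Cldn5, a tight junction protein of endothelium, read 400, 239 and 46.3 against 42.9, 51.1 and 56.9 and did not pass (-1.72, SE 0.80), but passed without Glt25d2 replicate 3 at -2.63. Of the Glt25d2 arrays, replicate 3 had the lowest values of Cldn5 and Crim1 and the highest of Ldb2. That array lay over 4-fold below the mean log2 value of the other Glt25d2 arrays for 8.4% of all genes. Relative to that mean, Cldn5 and Slco1a4 lay at -2.74 and -2.53 there, and the endothelial genes Esam and Eng at -0.47 and -0.017. The part of endothelial RNA in the values of Ldb2 and Crim1 was not tested.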

How the data were processed

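RNA pulled down with tagged ribosomes was measured on 6 one-colour Affymetrix arrays. The authors deposited linear intensities made with GCRMA, per the submitters' processing notes, without a version. GCRMA corrects background by probe base composition, normalizes quantiles and summarises each probe set. The deposited quantiles nevertheless differ between the groups: sorted log2 values of a pair of arrays lay on average 0.0174 to 0.0811 apart if both were of 1 group and 0.447 to 0.508 apart if not, so a fold can hold a share set by scaling.

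The 64 control probe sets of the 45101 were dropped. In the platform annotation 34945 name 1 gene, 932 several and 9160 none; genes were named only from the first kind. Log2 intensities were fitted without a pseudocount with limma 3.58.1 in R 4.3.3 (lmFit, eBayes, 2-sided, Benjamini-Hochberg adjustment over all 11821 genes or 21291 probe sets tested, threshold 0.05), without a block. A probe set was kept if a group mean reached 50, and a gene was represented by whichever of these had the highest mean log2 value. If no array of a group reached 50, only a bound is given, which is the other group's geometric mean over 50. With 3 arrays a group, the number of arrays limits the precision. On simulated data over 11821 genes, 7 of 50 genes changed 1.5-fold, 30 of 50 changed 2-fold and 44 of 50 changed 8-fold were recovered. In that simulation 5 unchanged genes were called. It held neither the scale difference between the groups nor the shared low values of Glt25d2 replicate 3. Its 5 calls therefore do not measure false calls in these data.

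The member genes, lists and tests were chosen with earlier results of these data known. The genes named are all members, up to 3 genes with the largest passing difference in each partner list and among the other subcerebral genes, close paralogs of members, 5 cell type markers, and for Crym, Pcp4 and Ldb2 the 3 genes of most similar profile. Rgs5 was named in addition, as the lower gene of the mural and fibroblast list. So were Thra, the other measured subcerebral genes and the measured endothelial genes. Alternatives were no filter, a filter at 50 on both group means, 16 added before the log, a floor of 50, quantile normalization, centring each array on its median, the replicate number as a block, averaging the probe sets of a gene, each array left out, and quantile normalization without Glt25d2 replicate 3. For the gene lists, leaving out that array alone was chosen after seeing the data. Tables and plots were made in Python 3.11.15 with matplotlib 3.10.9, numpy 2.4.6 and pandas 2.3.3.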

Additional observations from a re-analysis of the deposited data

How the results depend on the processing

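The 10 genes gave 4 lower and 1 higher. The number lower was 2 with both group means at 50 or more, a filter that removes Lratd2 and Diaph3, 7 after median centring and 8 after quantile normalization without Glt25d2 replicate 3; with 1 array left out it was 4 to 6, and the number higher was 1 in every alternative run. Lratd2, Crym, Diaph3, Ldb2 and Opn3 kept their sign and passed in every alternative that tested them. With the replicate number as a block, the counts were again 4 lower and 1 higher, and Crym was -1.97 (limma adjusted p = 0.00311); Gnai1, Cntn5, Fmn1 and Npr2 no longer passed with that block. Nothing in the labels says that a replicate number marks a shared animal, litter or day. Deviations of same-numbered arrays from their group means correlated at -0.49, 0.27 and -0.26 over genes. Those of arrays with unlike numbers correlated at -0.44 to 0.49. With 3 arrays a group these values cannot settle whether the numbers pair the samples.

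With 1 array left out, Cntn6 ranged from -1.43 to 0.34, Crim1 from -0.25 to 0.41, Cntn1 from -0.70 to 0.85, Cntn3 from -0.29 to 1.498 and Cntn4 from -0.25 to 1.16; each took its lowest value without Glt25d2 replicate 3. The cause of the turned signs was not tested beyond the shift of all genes that rescaling makes (median of all genes 0.56 as deposited, -0.018 after quantile normalization, -0.21 after centring). After quantile normalization Pcp4 was -0.046, Crim1 -0.67 (its other probe set -0.82), Furin -0.0093, Pcp4l1 -0.19, Diaph1 -0.069, Diaph2 -0.11, Cntn4 -0.11, Micos13 -0.15, Usp4 -0.32 and Pfn2 -0.097. After centring Pcp4 was -0.65, Crim1 -0.57 (its other probe set -0.73), Nrgn -0.26, Pcp4l1 -0.16, Diaph1 -0.17, Diaph2 -0.36, Cntn1 -0.44, Cntn4 -0.11, Micos13 -0.62, Usp4 -0.64 and Pfn2 -0.66. After quantile normalization without Glt25d2 replicate 3, Pcp4 was -0.030, Crim1 -0.99, Pcp4l1 -0.12, Diaph1 -0.034, Diaph2 -0.098, Cntn1 -0.95, Cntn2 -0.66, Cntn3 -0.85, Cntn4 -0.87, Micos13 -0.16, Usp4 -0.32 and Pfn2 -0.085.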
